A study of Mus musculus with 8 samples.

Results

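SIRPα, a receptor of the SIRP family, and its ligand CD47 form a recognition axis of macrophages. This axis and related SIRP genes were described here in tumor-associated macrophages (TAMs) through 7 genes. The genes were taken by symbol, by their place in the axis or in the SIRP family: *Sirpa*, *Sirpb1a*, *Sirpb1b*, *Sirpb1c*, *Cd47*, *Ptpn6* and *Ptpn11*. All 7 were found among the 26939 genes of the joined count tables, and all 7 passed the filter on low counts in every comparison.

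SIRPα, the product of *Sirpa*, is an inhibitory receptor on myeloid cells. When it binds CD47 on another cell, its cytoplasmic tail recruits the phosphatases SHP-1 (*Ptpn6*) and SHP-2 (*Ptpn11*), and phagocytosis of that cell is restrained, which is why CD47 is known as a don't-eat-me signal of tumor cells. SIRPβ receptors, encoded in the mouse by *Sirpb1a*, *Sirpb1b* and *Sirpb1c*, have similar extracellular domains but lack that inhibitory tail, and they signal through the activating adaptor DAP12 (*Tyrobp*).

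Bulk RNA sequencing was done on TAMs from the live CD45+ gate (CD11b+, F4/80+ and no Gr-1) of orthotopic tumors of EO771, a mouse mammary carcinoma line, at day 21. The hosts were female C57BL/6J wild-type (WT) mice and *Unc93b1* 3d/3d (3d/3d) mice of the same background, 8 to 14 weeks old, the 3d allele being a mutation that takes away the function of the endosomal TLRs. Mice were given either no αMARCO (control) or the αMARCO antibody ED31, an antibody to a scavenger receptor of macrophages, at 100 μg every 3 days from day 3 to day 12. Genotype and treatment were crossed, which gave 4 groups of 2 libraries each, and every control library came from 3 pooled mice. The sources used here do not settle whether control mice got PBS, an isotype antibody or nothing, nor how many mice made up an αMARCO library. The 3d allele was carried by every cell of the host but not by the tumor cells. P-values measure the spread between these libraries.

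The libraries held 15182618 to 26411936 counts, so 3 counts corresponded to 0.114 to 0.198 CPM, which are counts scaled to a common library size. Replicate 2 of the 3d/3d αMARCO group stood apart: it had the fewest genes with a count (19700, against 20849 to 23152) and the lowest TMM normalisation factor (0.902, against 0.967 to 1.05), and results on that group are given with and without it. *Unc93b1* itself, which the 3d allele changes in sequence, had 850 and 965 CPM in WT control and 539 and 659 CPM in 3d/3d control TAMs, so its level does not check the genotype. *Marco* had 1 to 17 counts in a library. Summed levels of the 11 macrophage markers were 11528 to 18030 CPM over the 8 libraries. Markers of other cells moved with the groups: the 12 nonclassical monocyte markers summed to 1699 and 1715 CPM in WT control, 1381 and 1588 in WT αMARCO, 583 and 708 in 3d/3d control, and 931 and 1233 in 3d/3d αMARCO TAMs. Much of these sums came from *Nr4a1*. It had 583 and 476 CPM in WT control, 746 and 875 in WT αMARCO, 410 and 309 in 3d/3d control, and 652 and 923 in 3d/3d αMARCO TAMs. With αMARCO, 3 of the 12 nonclassical markers were fitted above 0 in WT (median log2 fold change −0.50). In 3d/3d TAMs 5 were (median −0.36), with none called. The 12 T cell markers summed to 127 and 143 CPM in WT control TAMs and to 8.97 to 26.0 CPM in the other 6 libraries. The 7 B cell markers summed to 111 and 160 CPM in WT control, 75.2 and 82.5 in WT αMARCO, 26.3 and 27.6 in 3d/3d control, and 35.8 and 52.2 in 3d/3d αMARCO TAMs. Most of these B cell sums came from *Ighm* (71.6 and 112 CPM in WT control) and *Cd79b* (36.7 and 41.2 CPM in WT control). Among all markers, *Krt19* alone stayed at or under 3 counts in all 8 libraries.

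The *Sirpb1* genes are near copies of each other, which bears on how their reads were assigned. They lie on the minus strand of chromosome 3 in the GRCm38 build, *Sirpb1a* at chr3:15371653-15426520, *Sirpb1b* at chr3:15495751-15575065 and *Sirpb1c* at chr3:15795145-15848528, with the SIRP-like genes *Gm9733* and *Gm5150* on either side. *Sirpa* lies on chromosome 2, *Cd47* on chromosome 16, *Ptpn6* on chromosome 6 and *Ptpn11* on chromosome 5. Of all 100-base stretches of the annotated transcripts, 23.0% in *Sirpb1a*, 39.3% in *Sirpb1b* and 32.1% in *Sirpb1c* also occurred in another gene, against 0 in *Sirpa*, *Cd47*, *Ptpn11*, *Gm5150* and *Gm9733*. The longest sharing was between *Sirpb1b* and *Sirpb1c*, with 1070 stretches in common. Reads from such stretches cannot be given to 1 gene with certainty, so the difference between the 3 genes is less certain than their sum. How reads that match more than 1 gene were counted is not given in the sources used here. Their sum, their FPKM and their share beside *Sirpa* may therefore be affected too. *Gm37468*, annotated on the other strand inside *Sirpb1b*, shares 9 exonic bases with it, and *Gm20531* shares 195 exonic bases with *Ptpn6*, and the strand setting of the counting is not given in the sources used here.

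The bases upstream of the RefSeq start sites (GRCm38.p6, minus strand, 5′ to 3′) show how alike the copies are, and are printed for the 3 *Sirpb1* genes and *Gm5150*, the SIRP-like gene next to them whose transcript shares no 100-base stretch. Capitals mark matches to AGGAAGT, the core bound by ETS factors such as PU.1 (read here as ACTTCCT on the other strand), and to GAAA repeated after any 2 bases, the core of interferon response elements.
Sirpb1a (chr3:15426428-15426677): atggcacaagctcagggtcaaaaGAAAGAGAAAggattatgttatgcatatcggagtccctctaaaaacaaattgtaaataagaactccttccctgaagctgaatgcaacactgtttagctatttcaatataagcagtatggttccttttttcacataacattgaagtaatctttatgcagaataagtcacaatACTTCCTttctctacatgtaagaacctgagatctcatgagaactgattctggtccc
Sirpb1b (chr3:15575066-15575315): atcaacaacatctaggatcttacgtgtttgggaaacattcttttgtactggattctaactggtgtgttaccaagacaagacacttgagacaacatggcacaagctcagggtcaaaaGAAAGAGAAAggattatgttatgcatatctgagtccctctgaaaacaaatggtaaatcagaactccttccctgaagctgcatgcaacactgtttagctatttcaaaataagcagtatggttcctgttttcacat
Sirpb1c (chr3:15848488-15848737): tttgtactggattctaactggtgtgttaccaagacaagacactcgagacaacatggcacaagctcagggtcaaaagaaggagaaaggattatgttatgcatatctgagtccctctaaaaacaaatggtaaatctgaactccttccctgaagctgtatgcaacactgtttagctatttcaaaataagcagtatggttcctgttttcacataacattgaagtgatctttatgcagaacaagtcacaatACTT
Gm5150 (chr3:16006333-16006582): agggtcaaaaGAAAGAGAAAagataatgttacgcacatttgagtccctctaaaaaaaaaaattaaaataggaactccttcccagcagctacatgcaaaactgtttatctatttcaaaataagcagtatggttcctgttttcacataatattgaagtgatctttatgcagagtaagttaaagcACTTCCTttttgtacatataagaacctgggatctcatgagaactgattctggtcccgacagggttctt

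Over 300-base windows that also hold the first 50 transcribed bases, *Sirpb1b* and *Sirpb1c* were identical at 98.1% of 259 aligned bases, *Sirpb1a* and *Sirpb1b* at 95.7% of 207, and *Gm5150* at 87.2% to 88.1% of the bases aligned with the 3 *Sirpb1* genes. The RefSeq start of each copy falls at another place in this shared sequence. In the gene positions deposited with the counts, the starts of these genes all lie at the same distance from the ETS core. By those positions, part of the bases printed above for *Sirpb1a*, *Sirpb1c* and *Gm5150* lies inside the gene. The sites of the ETS core are printed with their flanks. The same site sits before the RefSeq start of *Sirpb1a* and after that of *Sirpb1b*. The stretch of *Sirpb1b* is shorter because its window ends there.
Sirpb1a (chr3:15426465-15426494): taagtcacaatACTTCCTttctctacatgt
Sirpb1b (chr3:15575016-15575039): caagtcacaatACTTCCTttctct
Sirpb1c (chr3:15848473-15848502): caagtcacaatACTTCCTttctctacgtgt
Gm5150 (chr3:16006382-16006411): taagttaaagcACTTCCTttttgtacatat
Ptpn6 (chr6:124738881-124738910): tggctagggttACTTCCTgggctttgcttc

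The first base of the match lay at −56 from the RefSeq start of *Sirpb1a*, 38 of *Sirpb1b*, −4 of *Sirpb1c*, −68 of *Gm5150* and −190 of *Ptpn6*. *Cd47* and *Ptpn11* had no match, and 9.35% of all 32851 windows held 1, on either strand. The repeated GAAA was found in *Sirpb1a*, *Sirpb1b* and *Gm5150* and in 3.44% of all windows, and the NF-κB motif searched (GGGA, any base, TTTCC, either strand) was in none of these 7 genes' windows and in 0.411% of all. The copies descend from a common sequence, so their matches are not separate observations. *Sirpa* and *Gm9733* had no window in the table used.

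Levels of different genes were compared as FPKM, which is CPM divided by the gene length in kb. *Sirpa* was the most abundant member, with a mean of 359.96 FPKM over the 8 libraries, above 99.6% of all genes. *Ptpn6* followed at 193 FPKM, then *Sirpb1a* at 83.3, *Cd47* at 45.1, *Sirpb1b* at 19.4, *Ptpn11* at 10.8 and *Sirpb1c* at 4.72 FPKM. The ranges over libraries were 304 to 403 FPKM for *Sirpa*, 139 to 285 for *Ptpn6*, 35.7 to 154 for *Sirpb1a*, 35.5 to 57.4 for *Cd47*, 10.2 to 29.0 for *Sirpb1b*, 7.52 to 12.4 for *Ptpn11* and 2.52 to 7.10 for *Sirpb1c*. The ranges of neighbours in this order overlapped for *Ptpn6* and *Sirpb1a*, for *Sirpb1a* and *Cd47*, and for *Sirpb1b* and *Ptpn11*, and did not overlap at the other steps. Of the 2 phosphatases, SHP-1 had 13.01 to 25.3 times the FPKM of SHP-2 in every library. The further SIRP-like genes reached 69.9 FPKM (*Gm5150*) and 32.9 FPKM (*Gm9733*), and the other 2 genes of that list, *Sirpd* and *Sirpg*, had no row. *F830045P16Rik*, another SIRP-like gene beside *Sirpa* that was looked up after the lists were written, had 0 to 15 counts.

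**Figure D1:**
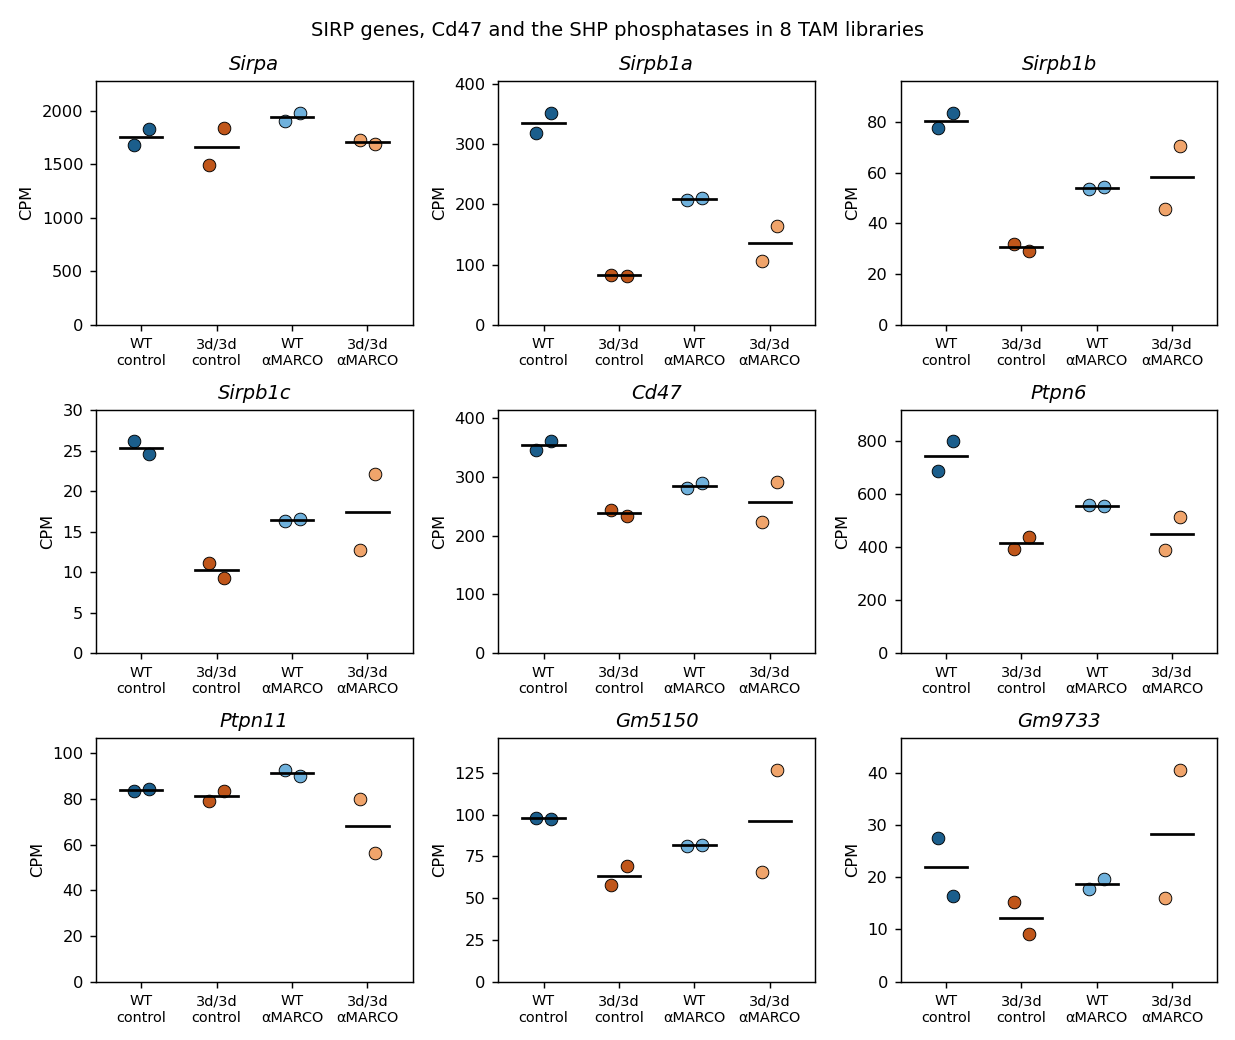
Level of each gene in CPM (y axis, from 0) in the 8 libraries, by group (x axis), each point a library and each line the mean of the 2 libraries. The 3 *Sirpb1* genes, *Cd47* and *Ptpn6* sit higher in both WT control libraries than in both 3d/3d control libraries (*Sirpb1a* at 318 and 352 against 83.4 and 81.9 CPM), while *Sirpa* and *Ptpn11* overlap.

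The first comparison asked how control TAMs differ with genotype. The activating *Sirpb1* genes were higher in WT than in 3d/3d TAMs, *Sirpb1a* the most, while the inhibitory receptor gene *Sirpa* did not pass the test. *Cd47* and *Ptpn6* were higher in WT by smaller folds, and *Ptpn11* did not pass the test. Calls required both an adjusted P no higher than 0.05 and a log2 fold change of 0.5 or more in either direction. Of the 7 genes, 5 were called higher in WT and 0 lower, while 6.58% of the 15600 genes tested were called higher and 6.4% lower. The median log2 fold change was 0.82 over the 7 genes and −0.0036 over all genes tested.

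*Sirpb1a* had 318 and 352 CPM in WT control and 83.4 and 81.9 CPM in 3d/3d control libraries. Both WT libraries lay far above both 3d/3d libraries, and the spread within each group was small. The log2 fold change, WT minus 3d/3d, was 2.004 (SE 0.10, adjusted P = 5.73e-06, edgeR quasi-likelihood test). *Sirpb1b* had 77.4 and 83.5 CPM in WT and 31.9 and 29.3 CPM in 3d/3d libraries, a log2 fold change of 1.38 (SE 0.11, adjusted P = 7.71e-05, edgeR). *Sirpb1c* had 26.1 and 24.6 CPM in WT and 11.2 and 9.28 CPM in 3d/3d libraries, a log2 fold change of 1.30 (SE 0.16, adjusted P = 0.00101, edgeR). Neither gene overlapped between the groups. With the counts of the 3 genes added up, the log2 fold change was 1.82.

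*Sirpa* had 1685 and 1827 CPM in WT control and 1491 and 1842 CPM in 3d/3d control libraries. The groups overlapped, since the highest and the lowest library were both of the 3d/3d group. The log2 fold change was 0.06 (SE 0.12, adjusted P = 0.781, edgeR), and without 3d/3d control replicate 1 it was −0.08. The *Sirpb1* genes thus made up a larger part of the summed FPKM of *Sirpa* and the *Sirpb1* genes in WT control libraries, 33.5% and 33.8%, than in 3d/3d control libraries, 14.3% and 11.4%. The ratio of *Sirpb1a* to *Sirpb1b* FPKM was 5.17 and 5.30 in WT control and 3.29 and 3.51 in 3d/3d control libraries. With 2 libraries against 2, an exact permutation test cannot give a two-sided P under 0.333, so shares and ratios are given with no test.

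*Cd47*, the ligand, had 346 and 360.1 CPM in WT control and 243 and 233 CPM in 3d/3d control libraries. The groups did not overlap, and the log2 fold change of 0.55 (SE 0.09, adjusted P = 0.00476, edgeR) was just above the threshold of 0.5. *Ptpn6*, which encodes SHP-1, had 687 and 799 CPM in WT and 394 and 438 CPM in 3d/3d libraries, a log2 fold change of 0.82 (SE 0.11, adjusted P = 0.00188, edgeR), with no overlap. *Ptpn11*, which encodes SHP-2, had 83.3 and 84.4 CPM in WT and 79.1 and 83.5 CPM in 3d/3d libraries, which overlapped, and a log2 fold change of 0.03 (SE 0.09, adjusted P = 0.861, edgeR). SHP-1 was therefore at 22.0 and 25.3 times the FPKM of SHP-2 in WT control and at 13.3 and 14.02 times in 3d/3d control libraries. When the spread was estimated over all 8 libraries, the calls of *Cd47* (adjusted P = 0.138) and *Ptpn6* (adjusted P = 0.0652) were lost, and those of the *Sirpb1* genes were not (edgeR adjusted P from 0.00355 to 0.0426). Across all 7 genes, 5 were higher in both WT control libraries than in both 3d/3d control libraries, as were 33.3% of all genes tested, and 0 were lower in both, as were 29.8%.

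Of the further SIRP-like genes, *Gm5150* had 98.0 and 97.7 CPM in WT control and 57.7 and 69.3 CPM in 3d/3d control libraries, with a log2 fold change of 0.60 (SE 0.11, adjusted P = 0.00571, edgeR). *Gm9733* had 27.5 and 16.5 CPM in WT and 15.2 and 9.18 CPM in 3d/3d libraries, and its log2 fold change of 0.84 (SE 0.33, adjusted P = 0.142, edgeR) was not called. The call of *Gm5150* was lost without 3d/3d control replicate 1 (0.48) and with the spread of all 8 libraries (adjusted P = 0.3102, edgeR), and *Gm9733* was called without WT control replicate 2 (1.17). The sums of the nonclassical monocyte, T cell and B cell markers given above were higher in the same WT control libraries. So were the sums of the 9 dendritic cell markers (340.5 and 635 against 72.4 and 113 CPM), the 8 NK cell markers (140.3 to 159 against 42.9 to 65.02 CPM) and the 8 neutrophil markers (316 to 339 against 232 to 268 CPM). Sums lower in WT were those of 10 resident-like macrophage markers (1926 and 2326 against 4761 and 5877 CPM), 8 classical monocyte markers (698 to 1197 against 1276 to 1600 CPM) and 8 fibroblast and endothelial markers (177 to 184 against 220.2 to 267 CPM). Single markers did not all follow their sums. *Timd4* of the resident-like list was called higher (log2 fold change 2.34, SE 0.56) and *Cx3cr1* of the nonclassical list lower (−0.92, SE 0.17). Of the 8 classical monocyte markers, 2 were called lower and 4 were fitted above 0. The part of the marked cell types in the differences of the SIRP genes was not tested. In bulk samples more cells of a type and more RNA per cell cannot be told apart.

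Around the axis, the genes of the kinases and adaptors that carry SIRP signals were called higher in 6 of 15 cases and lower in 1, with a median log2 fold change of 0.49 in WT minus 3d/3d control TAMs. Over all genes tested, 6.58% were called higher and 6.4% lower, and the single gene called lower is near that share. The Src family kinase genes *Fyn* (log2 fold change 1.28, SE 0.09) and *Fgr* (0.97, SE 0.10) were called higher, and *Src* (−0.75, SE 0.14) lower. *Tyrobp* and *Syk*, the adaptor and the kinase of SIRPβ, were looked up for that role after the lists had been read: their log2 fold changes of 0.42 (SE 0.10) and 0.49 (SE 0.12) had adjusted P values of 0.0169 and 0.0196 (edgeR) and fell short of the fold threshold. Of 16 tested partners and relatives of the SHP phosphatases, 3 were called higher, *Ptpn22*, *Dok2* and *Ptprc*, and 2 lower, *Inppl1* and *Pag1*, with a median of 0.25.

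A list of inhibitory myeloid receptors and their relatives, most with the same kind of tail motif (ITIM) as SIRPα, was called higher in WT control TAMs for 12 of 21 tested genes and lower for 1, with a median log2 fold change of 0.79. It also holds *Lilra5*, an activating receptor gene, *Clec4a1* and *Clec4a3*, lectin genes related to DCIR, and *Cd200r1*, an inhibitory receptor gene, whose products have no ITIM, and without these 4, left out after their values were seen, 8 of 17 genes were called higher and 1 lower, with a median of 0.51. *Siglece*, a sialic acid receptor, had a log2 fold change of 3.63 (SE 0.14), *Pecam1*, an adhesion receptor, 2.91 (SE 0.12) and *Clec12a*, a receptor for uric acid crystals, 1.99 (SE 0.15), while *Cd22* was lower at −1.05 (SE 0.20). Of 5 other anti-phagocytic signals only *Cd200* was called, at 3.07 (SE 0.30), with 17.3 and 12.8 CPM in WT and 2.26 and 1.32 CPM in 3d/3d libraries. Of 24 tested pro-phagocytic receptors and signals, 5 were called higher, among them *Timd4* (2.34, SE 0.56), *Fcgr4* (1.83, SE 0.15) and *Pros1* (1.16, SE 0.17), and 7 lower, among them *Gas6* (−2.40, SE 0.12), *Stab1* (−2.06, SE 0.11) and *Mertk* (−1.30, SE 0.09). Of 4 tested genes for other ligands and for CD47 maturation, *Thbs2*, a thrombospondin gene, was called lower (−1.13, SE 0.27) and none higher. These counts stand beside the 6.58% of all genes tested that were called higher and the 6.4% called lower. The single gene of the inhibitory receptor list called lower is near that share, and single calls in the short lists carry little weight.

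**Figure D2:**
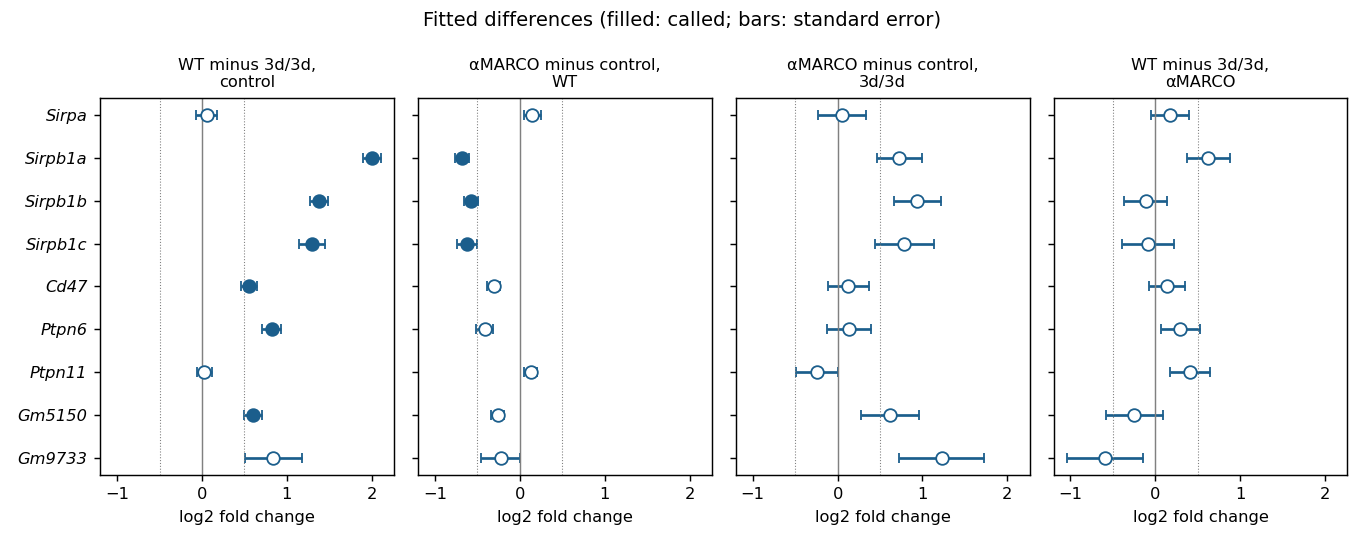
Fitted log2 fold change (x axis) of each gene (y axis) in 4 comparisons, with bars for the standard error, filled points for called genes and dotted lines at the fold threshold of 0.5. The *Sirpb1* genes lie above 0 for genotype in control TAMs (2.004, 1.38 and 1.30), below 0 for αMARCO in WT (−0.68, −0.58 and −0.62) and above 0, with wide bars and no call, for αMARCO in 3d/3d TAMs (0.73, 0.94 and 0.78).

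The second comparison asked what αMARCO changed in WT TAMs. The 3 *Sirpb1* genes were called lower with αMARCO, by a similar amount each. *Cd47* and *Ptpn6* had adjusted P values under 0.05 but smaller folds than the threshold, and *Sirpa* and *Ptpn11* did not pass the test. Of the 7 genes, 3 were called lower and 0 higher, while 11.8% of the 15630 genes tested were called lower and 8.91% higher. The median log2 fold change was −0.41 over the 7 genes and −0.01 over all genes tested. This comparison and that of genotype in control TAMs share the 2 WT control libraries.

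*Sirpb1a* had 208 and 212 CPM in WT αMARCO libraries, against 318 and 352 CPM in WT control. The αMARCO libraries were both below the control libraries and close to each other. The log2 fold change, αMARCO minus control, was −0.68 (SE 0.08, adjusted P = 0.000494, edgeR). *Sirpb1b* had 53.6 and 54.2 CPM with αMARCO against 77.4 and 83.5 CPM, a log2 fold change of −0.58 (SE 0.08, adjusted P = 0.000898, edgeR), and *Sirpb1c* 16.3 and 16.6 CPM against 26.1 and 24.6 CPM, a log2 fold change of −0.62 (SE 0.12, adjusted P = 0.00306, edgeR). None of the 3 overlapped between the groups. With their counts added up the log2 fold change was −0.66, and the *Sirpb1* share of the SIRP FPKM was 22.7% and 22.3% with αMARCO.

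*Sirpa* had 1904 and 1981 CPM with αMARCO, both above the 1685 and 1827 CPM of the control libraries, a log2 fold change of 0.15 (SE 0.10, adjusted P = 0.275, edgeR). *Cd47* had 280.2 and 289 CPM against 346 and 360.1 CPM, a log2 fold change of −0.31 (SE 0.08, adjusted P = 0.0136, edgeR). *Ptpn6* had 560.6 and 554 CPM against 687 and 799 CPM, a log2 fold change of −0.41 (SE 0.10, adjusted P = 0.00992, edgeR). All 3 genes had separate groups, *Sirpa* upward and the others downward. *Ptpn11* had 92.8 and 90.3 CPM against 83.3 and 84.4 CPM, a log2 fold change of 0.13 (SE 0.08, adjusted P = 0.2203, edgeR), also with no overlap. In all, 5 of the 7 genes were lower and 2 higher in every αMARCO library, as were 36.2% and 34.6% of all genes tested.

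*Gm5150* had 81.3 and 81.9 CPM with αMARCO (log2 fold change −0.26, SE 0.07) and *Gm9733* 17.8 and 19.7 CPM (−0.23, SE 0.23), and neither was called. With the spread estimated over all 8 libraries, the calls of *Sirpb1a*, *Sirpb1b* and *Sirpb1c* were lost (adjusted P = 0.129, 0.168 and 0.2195, edgeR), with log2 fold changes of −0.68, −0.58 and −0.63. Without WT control replicate 1 *Ptpn6* was called lower, at −0.53. Sums of the T cell, B cell and nonclassical monocyte markers were also lower in WT αMARCO than in WT control TAMs. So were those of the 9 dendritic cell markers (64.5 and 75.9 against 340.5 and 635 CPM), the 8 NK cell markers (46.2 to 56.9 against 140.3 to 159 CPM) and those of fibroblasts and endothelium (117 to 123 against 177 to 184 CPM). The sums of the 11 macrophage markers (11528 to 12666 against 14189 to 14871 CPM) and of the tumor and epithelial markers (30.7 to 32.5 against 50.5 to 106 CPM) were lower too. Sums higher with αMARCO were those of classical monocyte (1351 to 1548 against 698 to 1197 CPM), resident-like macrophage (2814 to 2974 against 1926 to 2326 CPM) and neutrophil markers (375 to 385 against 316 to 339 CPM). Single markers did not all follow their sums. *Nr4a1* of the nonclassical list was called higher, *Cxcr2* and *S100a8* of the neutrophil list lower. Of 5 tested B cell markers, 1 was called lower and 2 were fitted above 0. The part of the marked cell types was not tested.

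Among the genes around the axis, 8 of 21 genes of the inhibitory receptor list were called lower with αMARCO in WT, including *Siglecg* (log2 fold change −1.79, SE 0.31), *Siglece* (−1.15, SE 0.10) and the activating receptor gene *Lilra5* (−1.52, SE 0.15), and *Fcgr2b*, the inhibitory IgG receptor, was called higher (0.56, SE 0.11). Without the same 4 genes, 5 of 17 were called lower and 1 higher. Of the 5 other anti-phagocytic signals, *Cd200* (−3.39, SE 0.27), *Pdcd1* (−3.13, SE 0.23) and *Cd24a* (−0.93, SE 0.24) were called lower. Of 15 signalling partners only *Fyn* was called (−0.83, SE 0.07), and of the 16 SHP partners *Inppl1* was called higher (0.66, SE 0.08) and *Ptpn22* lower (−0.50, SE 0.09). The pro-phagocytic genes were called higher in 2 of 24 cases, *Stab1* (1.504, SE 0.10) and *Lrp1* (0.77, SE 0.10), and lower in 6, among them *Mfge8* (−2.01, SE 0.26), *Timd4* (−1.62, SE 0.47) and *Pros1* (−1.27, SE 0.16). *Thbs2* was called lower (−1.68, SE 0.31). Of all genes tested, 8.91% were called higher and 11.8% lower. The counts of the signalling partners and of the SHP partners were near or under these shares. So were the counts of pro-phagocytic genes and of inhibitory receptor genes called higher.

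**Figure D3:**
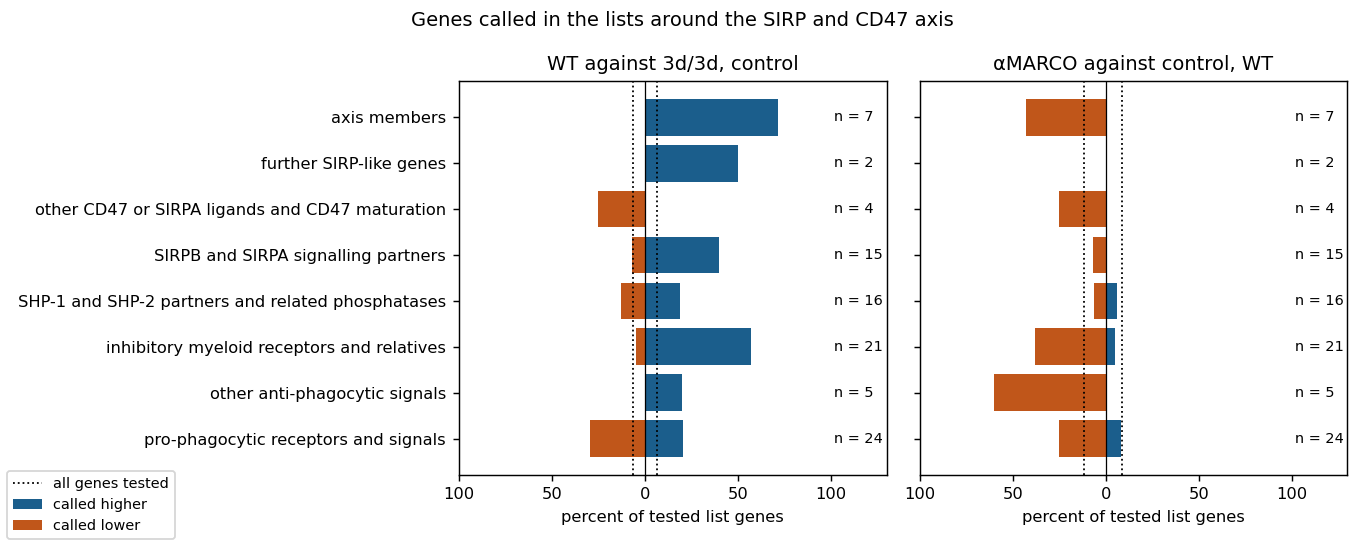
Percent of the tested genes of each list (y axis, with the number tested as n) called higher (to the right of 0) or lower (to the left) in control TAMs by genotype and in WT TAMs with αMARCO, with dotted lines at the percent of all genes tested (6.58% and 6.4%, and 8.91% and 11.8%). The inhibitory myeloid receptors and relatives have 12 of 21 genes higher in WT control TAMs and 8 of 21 lower with αMARCO.

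In 3d/3d TAMs, no gene was called between αMARCO and control: 0 of 15428 tested genes passed in the edgeR test, 744 (4.82%) had an unadjusted P of at most 0.05, and DESeq2 called 60. The fitted values of the *Sirpb1* genes lay above 0 all the same. *Sirpb1a* had 107 and 164 CPM with αMARCO against 83.4 and 81.9 CPM in control, a log2 fold change of 0.73 (SE 0.27, unadjusted P = 0.0345, adjusted P = 0.823, edgeR). *Sirpb1b* had 45.5 and 70.6 CPM against 31.9 and 29.3 CPM, a log2 fold change of 0.94 (SE 0.28, unadjusted P = 0.0149, adjusted P = 0.823, edgeR). *Sirpb1c* had 12.8 and 22.2 CPM against 11.2 and 9.28 CPM, a log2 fold change of 0.78 (SE 0.35, unadjusted P = 0.0647, adjusted P = 0.823, edgeR). In each of the 3 genes replicate 2 of the αMARCO group was the higher library, and replicate 1 also lay above both control libraries. Of all genes tested, 18.6% lay above and 20.4% below control in every library.

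Without replicate 2 of the 3d/3d αMARCO group the log2 fold changes were 0.40 for *Sirpb1a*, 0.60 for *Sirpb1b* and 0.35 for *Sirpb1c*, and *Sirpb1b* was called (edgeR adjusted P = 0.0146), with 571 genes called in all. Without replicate 1 they were 0.997, 1.21 and 1.12, all 3 called, with 5500 genes called in all. In both fits the remaining αMARCO library is assumed to vary like the control libraries. The size of the fitted values thus rested on which library was used, and their sign did not.

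*Sirpa* had 1724 and 1689 CPM with αMARCO in 3d/3d TAMs, within the range of the control libraries (log2 fold change 0.05, SE 0.28). *Cd47* had 223 and 291 CPM against 243 and 233 CPM (0.12, SE 0.24) and *Ptpn6* 389 and 514 CPM against 394 and 438 CPM (0.13, SE 0.26). For both genes replicate 1 lay below and replicate 2 above the control libraries, and without replicate 2 the log2 fold changes were −0.07 and −0.07. *Ptpn11* had 79.9 and 56.4 CPM against 79.1 and 83.5 CPM (−0.24, SE 0.24), replicate 2 being the lowest of the 8 libraries. Its log2 fold change was −0.52 without αMARCO replicate 1 and −0.00092 without αMARCO replicate 2. *Gm5150* had 65.9 and 127 CPM against 57.7 and 69.3 CPM (0.61, SE 0.34) and *Gm9733* 16.03 and 40.6 CPM against 15.2 and 9.18 CPM (1.23, SE 0.50). Without αMARCO replicate 1 the log2 fold changes of *Gm5150* and *Gm9733* were 1.002 and 1.75, and without αMARCO replicate 2 they were 0.077 and 0.43.

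Under αMARCO, WT and 3d/3d TAMs were compared in the same way, and edgeR called 0 of 15722 genes, with 1076 (6.84%) at an unadjusted P no higher than 0.05 and 214 called by DESeq2. *Sirpb1a* was at 208 and 212 CPM in WT and at 107 and 164 CPM in 3d/3d libraries, a log2 fold change of 0.62 (SE 0.25, unadjusted P = 0.0583, adjusted P = 0.709, edgeR). Both WT libraries lay above both 3d/3d libraries, as in 23.9% of genes tested (19.7% were lower in both). *Sirpb1b* was at 53.6 and 54.2 CPM in WT, between the 45.5 and 70.6 CPM of the 3d/3d libraries, and *Sirpb1c* at 16.3 and 16.6 CPM, between 12.8 and 22.2 CPM. Their log2 fold changes were −0.11 (SE 0.25) and −0.09 (SE 0.31). Without 3d/3d αMARCO replicate 2 these became 0.22 and 0.34, and *Sirpb1a* was called at 0.94 (adjusted P = 4.05e-07, edgeR), with 1252 genes called in all.

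The other members under αMARCO had log2 fold changes, WT minus 3d/3d, of 0.17 (SE 0.23) for *Sirpa*, 0.14 (SE 0.21) for *Cd47*, 0.29 (SE 0.23) for *Ptpn6* and 0.41 (SE 0.24) for *Ptpn11*. *Sirpa*, *Ptpn6* and *Ptpn11* were higher in both WT libraries and *Cd47* overlapped. Of all genes tested, 23.9% were higher and 19.7% lower in both WT libraries, and none of these members was called. The log2 fold change of *Ptpn11* was 0.71 without 3d/3d αMARCO replicate 1 and 0.17 without replicate 2, the library that stood apart. The *Sirpb1* share of the SIRP FPKM was 15.8% and 22.9% in the 3d/3d αMARCO libraries, which lay on either side of the WT αMARCO values. The ratio of *Sirpb1a* to *Sirpb1b* FPKM was 2.95 and 2.92 in them and 4.86 and 4.90 in WT αMARCO libraries, so that it was lower in all 4 3d/3d libraries than in all 4 WT libraries. This ratio was looked at after the levels were seen and carries no test.

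**Figure D4:**
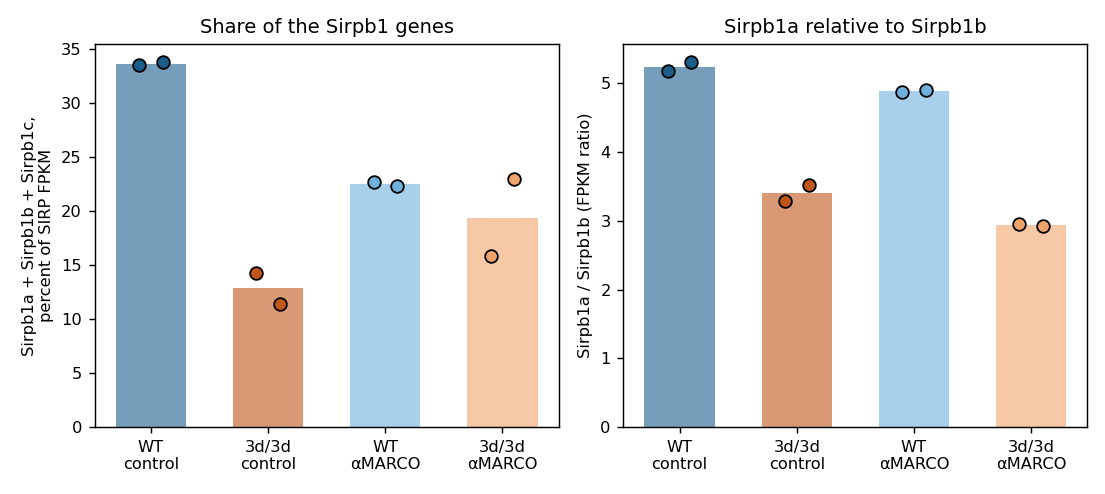
Left, share of *Sirpb1a*, *Sirpb1b* and *Sirpb1c* in the summed FPKM of these and *Sirpa*, in percent, and right, the ratio of *Sirpb1a* to *Sirpb1b* FPKM, each by group (bars, mean of 2 libraries; points, libraries). The share is 33.5% and 33.8% in WT control and 14.3% and 11.4% in 3d/3d control libraries, and the ratio is 4.86 to 5.30 in WT and 2.92 to 3.51 in 3d/3d libraries.

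Whether αMARCO acted differently by genotype was tested as an interaction in a model of all 8 libraries. No gene was called by edgeR among 16620 tested, with 2549 (15.3%) at an unadjusted P no higher than 0.05 and 211 called by DESeq2. The αMARCO effect in WT minus that in 3d/3d TAMs was −1.40 on the log2 scale for *Sirpb1a* (SE 0.28, unadjusted P = 0.000982, adjusted P = 0.284, edgeR), −1.51 for *Sirpb1b* (SE 0.28, unadjusted P = 0.00062, adjusted P = 0.281, edgeR) and −1.40 for *Sirpb1c* (SE 0.36, unadjusted P = 0.00429, adjusted P = 0.318, edgeR). DESeq2 called *Sirpb1a* and *Sirpb1b*. It was −0.54 (SE 0.26) for *Ptpn6*, −0.43 (SE 0.23) for *Cd47*, 0.10 (SE 0.25) for *Sirpa* and 0.36 (SE 0.26) for *Ptpn11*. Without 3d/3d αMARCO replicate 2 the *Sirpb1* values were −1.09, −1.19 and −0.99, with −0.36 for *Ptpn6* and −0.26 for *Cd47*. Without replicate 1 the *Sirpb1* values were −1.67, −1.79 and −1.74, with −0.72 for *Ptpn6*, −0.60 for *Cd47* and 0.66 for *Ptpn11*. Both αMARCO libraries lay below control in WT and above it in 3d/3d TAMs for all 3 *Sirpb1* genes, as for 4.15% of the genes tested, while the opposite was seen for 6.55% of genes and for none of the 7. The lone library is again assumed to vary like the others.

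The *Sirpb1* genes were also set beside their chromosomal neighbours. In the 2 Mb around the cluster on either side, 7 further genes were tested in control TAMs. By genotype, only *Car13*, a carbonic anhydrase gene, was called among them (log2 fold change 0.58, SE 0.13, adjusted P = 0.0157, edgeR). *Gm37468*, on the opposite strand within *Sirpb1b*, had 64 to 328 counts and a log2 fold change of 0.51 (SE 0.24), and *Ythdf3*, the nearest gene on the far side of *Gm5150*, had −0.29 (SE 0.09). With αMARCO in WT, *Car13* was called lower at −0.52 (SE 0.11), *Car2* lower at −3.24 (SE 0.76) and *Ythdf3* higher at 0.59 (SE 0.08), while *Gm37468* had 0.35 (SE 0.18). The called neighbours did not all share the direction of the *Sirpb1* genes.

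**Figure D5:**
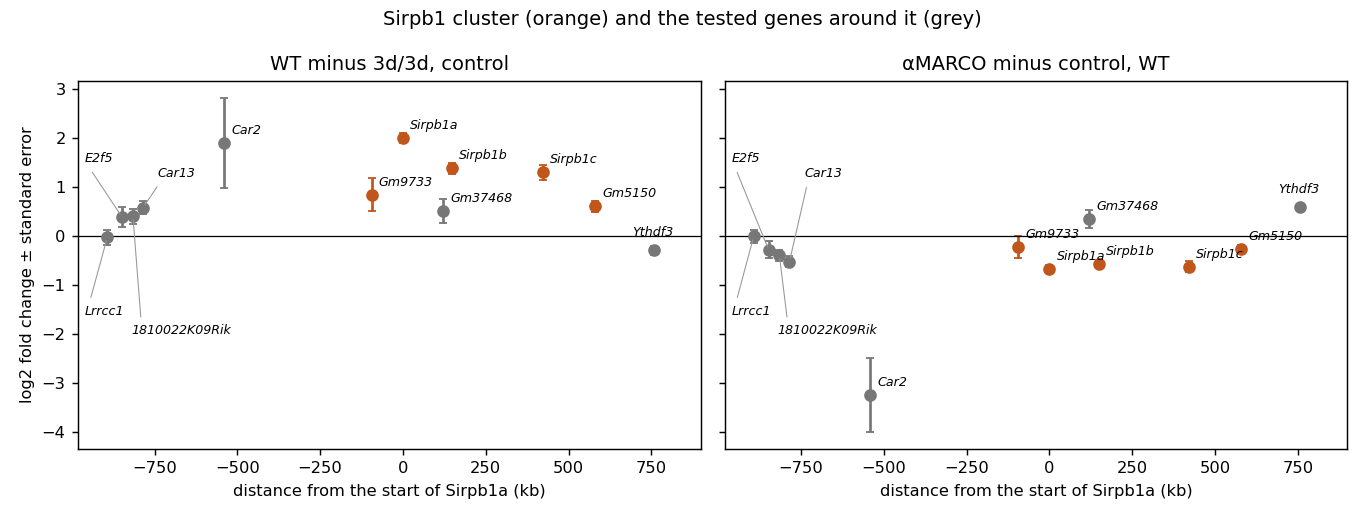
Log2 fold change with its standard error (y axis) of the tested genes by distance of their start from that of *Sirpb1a* in kb (x axis), SIRP genes in orange and others in grey. The SIRP genes lie between 0.60 and 2.004 by genotype in control TAMs and between −0.68 and −0.23 with αMARCO in WT, while *Gm37468*, which lies among them, is at 0.51 and 0.35.

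Across the 8 libraries, the members fell into those whose levels ran together and those whose levels did not. Pearson's r of log2 CPM was 0.98 between *Sirpb1b* and *Sirpb1c*, 0.92 between *Sirpb1a* and each of them, 0.97 between *Cd47* and *Ptpn6*, and 0.95 and 0.96 of *Sirpb1a* with *Cd47* and *Ptpn6*. *Sirpa* had an r of 0.11 to 0.47 with every other member, and *Ptpn11* of −0.20 to 0.47. These values describe 8 libraries that share group, depth and cell makeup, and the *Sirpb1* genes may also share reads. Among 9054 genes with a mean of at least 10 CPM, the 3 most like *Sirpb1a* were *Cd79b* (r = 0.99), *Ighm* (r = 0.99) and *Clec4a3* (r = 0.99). *Cd79b* and *Ighm*, genes of the B cell receptor, are among the B cell markers and had means of 15.7 and 51.4 CPM, and *Clec4a3* is a C-type lectin gene of myeloid cells with a mean of 317 CPM. The most like were *Bcl2a1d* for *Sirpb1c* (r = 0.984), *Tmem176a* for *Cd47* (0.997), *Slamf9*, *Snx10* and *Otud1* for *Ptpn6* (0.999, 0.997 and 0.994), *Rexo1* for *Ptpn11* (0.995) and *Timm44* for *Sirpa* (0.92). For *Sirpa* no gene reached an r of 0.95, and 93 genes did so for *Ptpn11*.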

How the data were processed

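The authors deposited raw counts per gene in 3 tables, made per the labels and methods from reads trimmed with fastp, aligned with HISAT2 (2.0.5) and counted with featureCounts (1.5.0); the annotation positions matched GENCODE M21 (GRCm38) for 95.5% of genes. Their fold change and P columns and FPKM columns were not used. Counts were joined by gene identifier, and the 95230 counts held in more than 1 table were the same in each. Each comparison of 4 libraries was tested with edgeR (4.0.16; TMM, filterByExpr, robust quasi-likelihood fit), P values adjusted by Benjamini-Hochberg over all genes tested, and the interaction in a model of all 8 libraries. CPM used TMM factors over all 8 libraries, and FPKM divided these by the deposited gene length. DESeq2 (1.42.0), other filters, normalisations and left-out libraries were tried. The scripts were tested on simulated data. Promoter windows came from RefSeq (GRCm38.p6).

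The 7 genes, the lists around them and the marker lists were chosen with earlier results of these data known. From each list around the axis, the called genes with the largest absolute log2 fold change were named, up to 3 in each direction (1 such result is not reported here), and for each member the 3 genes of highest correlation were computed. 1 library of the 3d/3d control group carries a genotype tag of 3d/4d, and its title was used. The limit of 3 counts covers counting error only.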

Additional observations from a re-analysis of the deposited data

Results flagged for a closer look

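The libraries of the *Sirpb1* genes lay on opposite sides of control with αMARCO in the 2 genotypes, although the values in 3d/3d TAMs were not called. In WT TAMs the log2 fold change, αMARCO minus control, was −0.68 for *Sirpb1a*, −0.58 for *Sirpb1b* and −0.62 for *Sirpb1c*, and both αMARCO libraries lay below both control libraries. In 3d/3d TAMs it was 0.73 for *Sirpb1a*, 0.94 for *Sirpb1b* and 0.78 for *Sirpb1c*, and both αMARCO libraries lay above both control libraries. None of these 3 values passed the test in 3d/3d TAMs (adjusted P = 0.823 each, edgeR). Replicate 2 of that group, which stood apart, carried much of their size, and without it they were 0.40, 0.60 and 0.35, *Sirpb1b* being called. Such opposite moves, down in WT and up in 3d/3d TAMs, were seen in 690 of 16620 genes tested (4.15%). The test of the difference itself, edgeR's interaction term, gave unadjusted P of 0.000982, 0.00062 and 0.00429 and adjusted P of 0.284, 0.281 and 0.318, so the difference was not called. Without that replicate it was called for all 3 (−1.09, −1.19 and −0.99). The 3 genes share transcript sequence and are not separate observations.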

How the results depend on the processing

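With all 8 libraries in 1 model, 364 genes were called by genotype in control TAMs and 164 with αMARCO in WT, and 1 with αMARCO in 3d/3d and 108 by genotype under αMARCO. The values of *Cd47* (0.57) and *Ptpn6* (0.84) by genotype and of *Sirpb1a* (−0.68), *Sirpb1b* (−0.58) and *Sirpb1c* (−0.63) with αMARCO in WT then lost their calls. With the fold threshold raised to 1 on the log2 scale, 951 and 1366 genes were called in control TAMs and in WT, and with no fold threshold 5487 in WT. DESeq2 called 60, 214 and 211 genes with αMARCO in 3d/3d, by genotype under αMARCO and for the interaction, and with no filter on low counts 174, 107 and 152 were called. The interaction of *Sirpb1a* and *Sirpb1b* was called by DESeq2 (−1.37 and −1.48) and with no filter (−1.39 and −1.50, and *Sirpb1c* −1.39).

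The replicate block called 5 genes with αMARCO in 3d/3d and 97 by genotype under αMARCO, and changed no call of the 7 genes, while *Gm9733* (0.83) was called by genotype in control TAMs, as it was by DESeq2 (0.83) and with no filter (0.85). Only 2 replicate numbers exist, and deviations of same-numbered libraries correlated by −0.077 to 0.135, so the numbers are not shown to pair samples.

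Leaving out 1 library at a time gave the following lowest and highest values where a call or a direction changed. By genotype in control TAMs, 1493 to 2232 genes were called, with log2 fold changes of −0.083 to 0.21 for *Sirpa*, −0.0069 to 0.059 for *Ptpn11*, 0.48 to 0.73 for *Gm5150*, 0.43 to 1.25 for *Gm9733*. With αMARCO in WT, 1940 to 3951 genes were called, with log2 fold changes of −0.53 to −0.31 for *Ptpn6*, −0.55 to 0.19 for *Gm9733*. With αMARCO in 3d/3d, 1 to 5500 genes were called, with log2 fold changes of −0.095 to 0.21 for *Sirpa*, 0.40 to 0.997 for *Sirpb1a*, 0.60 to 1.21 for *Sirpb1b*, 0.35 to 1.12 for *Sirpb1c*, −0.071 to 0.30 for *Cd47*, −0.074 to 0.31 for *Ptpn6*, −0.52 to −0.00092 for *Ptpn11*, 0.077 to 1.002 for *Gm5150*, 0.43 to 1.75 for *Gm9733*. By genotype under αMARCO, 17 to 6366 genes were called, with log2 fold changes of 0.36 to 0.94 for *Sirpb1a*, −0.38 to 0.22 for *Sirpb1b*, −0.42 to 0.34 for *Sirpb1c*, −0.025 to 0.33 for *Cd47*, 0.17 to 0.71 for *Ptpn11*, −0.63 to 0.28 for *Gm5150*, −1.10 to 0.20 for *Gm9733*. For the interaction, 0 to 6440 genes were called, with log2 fold changes of −0.069 to 0.24 for *Sirpa*, −1.67 to −1.09 for *Sirpb1a*, −1.79 to −1.19 for *Sirpb1b*, −1.74 to −0.99 for *Sirpb1c*, −0.60 to −0.26 for *Cd47*, −0.72 to −0.36 for *Ptpn6*, 0.11 to 0.66 for *Ptpn11*, −1.26 to −0.35 for *Gm5150*, −1.97 to −0.67 for *Gm9733*. Each lone library is assumed to vary like the others.

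Reversals were of values with no call. Without 3d/3d control replicate 1, *Sirpa* (−0.083) and *Ptpn11* (−0.0069) turned in control TAMs and *Sirpa* (−0.095) with αMARCO. Without 3d/3d control replicate 2 the interaction of *Sirpa* was −0.069. Without 3d/3d αMARCO replicate 2, *Cd47* (−0.071) and *Ptpn6* (−0.074) turned with αMARCO, and by genotype under αMARCO *Sirpb1b* (0.22), *Sirpb1c* (0.34), *Gm5150* (0.28) and *Gm9733* (0.20) did. Without replicate 1 of that group *Cd47* was −0.025 by genotype, and without WT control replicate 1 *Gm9733* was 0.19 with αMARCO in WT. Under αMARCO the summed *Sirpb1* counts gave 0.40, and with *Gm5150* and *Gm9733* added, an alternative chosen after seeing the data, 0.17, both against negative values of *Sirpb1b* and *Sirpb1c*. As a share of counts instead of FPKM, the *Sirpb1* genes made up 20.1% and 12.6% in WT and 6.98% and 10.98% in 3d/3d libraries, control and αMARCO in turn. The cause of these changes was not tested. With 2 libraries a group, small differences of *Sirpa* and *Ptpn11* cannot be resolved.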
